A study of Mus musculus with 24 samples.

Results

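The 3 libraries of 2-day myotubes from wild-type (WT) mice were compared with the 3 libraries of freshly isolated muscle stem cells (FiMuSCs) from WT mice, 6 of the 24 libraries of the series. They were taken by their labels and by nothing measured. Both groups came from hindlimb muscle of Pax7-nGFP animals (C57BL/10ScSnJ in the study's methods), whose nuclear GFP reporter marks cells that use the Pax7 gene. FiMuSCs were sorted directly from uninjured muscle as GFP+ ITGA7+ cells negative for CD31, CD45, SCA1 and CD11b, and their RNA was prepared with the Arcturus Picopure kit. The myotubes were grown from primary myoblasts, taken by magnetic separation with ITGA7 and the same negative markers, cultured on collagen with basic FGF and then kept for 2 days in horse serum medium, and their RNA was prepared with the Nucleospin RNA II kit. RNA kit, sorting straight from dissociated muscle, culture and cell state change together between the groups, so their parts in any difference cannot be told apart. WT activated MuSCs (AMuSCs, 3 days after cardiotoxin), which share the FiMuSC kit, and WT myoblasts, which share the myotube kit, are given beside the main values where they help, as means ± SD (n = 3) on a TMM scale over all 24 libraries. The age of the animals behind these libraries is not given in the labels. The same contrast in mdx mice, which lack full-length dystrophin, was measured in 6 further libraries.

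Both states are non-dividing. The quiescent MuSC lies between the fibre membrane and its basal lamina, holds PAX7 and active Notch signalling, and can return to the cell cycle. The myotube is a syncytium made when myoblasts that have turned on MYOD1 and MYOG leave the cycle for good, fuse through the membrane proteins Myomaker and Myomixer, and fill with sarcomeres. Exit from the cycle in either state relies on inhibitors of cyclin-dependent kinases and on the retinoblastoma family of pocket proteins.

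Counts per library lay between 37280196 and 44436564 in FiMuSCs and between 37337731 and 44836107 in myotubes, so total counts were alike. At least 10 counts were found for 18751 to 19141 genes in a FiMuSC library and for 15647 to 16132 in a myotube library. Of 18614 genes tested with edgeR's quasi-likelihood test, 14625 passed an adjusted p of 0.05 (78.6%), with 6746 higher in myotubes (36.2%) and 7879 lower (42.3%). A second test, for a difference of more than 2-fold, was passed by 8536 genes (45.9%), of which 3695 were higher in myotubes (19.9% of those tested) and 4841 lower (26%). Myotube and FiMuSC libraries did not overlap for 15444 genes (83%). Since most genes passed, counts and remarks on overlap for each gene group below are to be read against these shares. Adjusted p-values are those of the first test. Levels are given as CPM, the counts relative to library size, on libraries scaled by the trimmed mean of M-values (TMM). CPM takes no account of transcript length, so levels of different genes are compared in TPM, which does, and only the lists of genes with the highest CPM are ranked by counts alone. Scaling on total counts in place of TMM moved the median log2 difference by -0.59 and the share of calls that were higher in myotubes from 46.1 to 30.4%, and upper-quartile scaling moved them by -0.28 and to 38.3%. Genes said not to pass are those of the TMM fit. Among them Dmd, Eef1a1, Foxo4, Neat1, Psme2, Rbl1, Rbpj, Rps24, Tpm3, Utrn and Chrnb1 passed as lower in myotubes under both of these scalings, and Cdh15 and Mcm2 with total counts. The markers chosen for the 2 states differed in the direction of the labels. Pax7, Calcr, Cd34, Vcam1, Sdc4 and Chrdl2 were higher in FiMuSCs, and Myog, Mymk, Myh3, Myh8, Acta1, Ckm and Ttn in myotubes, with no overlap for any of them. They were chosen with earlier results of these data known, so they are no independent check of the labels. Of 46 genes tested in the wider MuSC list, 35 were lower in myotubes and 6 higher. Itga7 and Ncam1 were higher, as described below. As nothing in the labels says that the 3 libraries of a group came from separate animals or cultures, p-values measure only the spread between these samples. Most markers of other cells were higher in FiMuSCs, with a smaller gap in the sum for pericytes and smooth muscle, as described near the end. In these bulk libraries fewer cells of a type and less RNA per cell cannot be told apart.

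**Figure D1:**
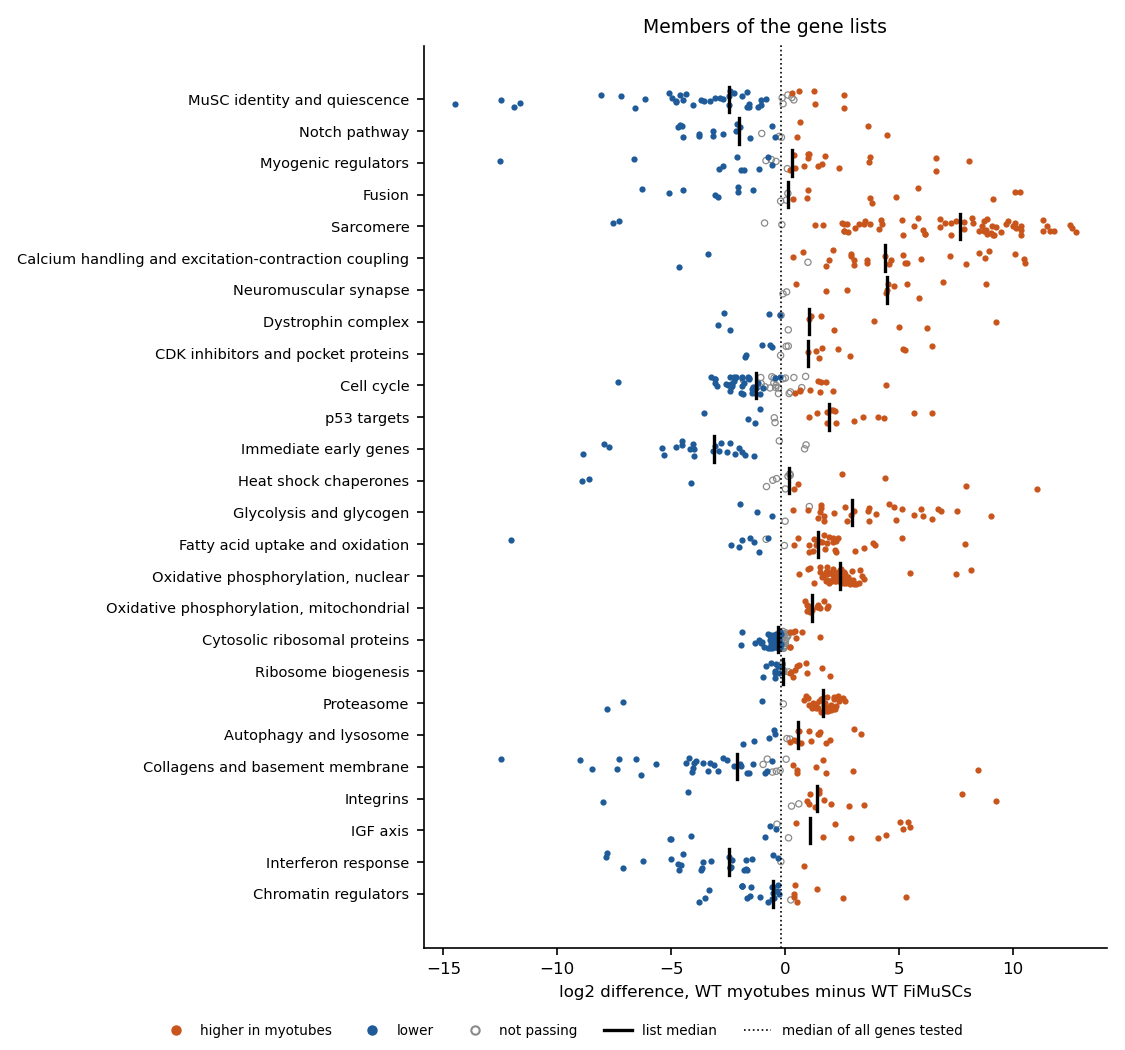
Each point is 1 listed gene at its log2 difference between WT myotubes and WT FiMuSCs (3 libraries each), orange where higher and blue where lower at an adjusted p under 0.05, open grey where it did not pass, with the list median as a bar and the median of all genes tested, -0.19, as a dotted line. Sarcomere genes lie to the right around 7.69, and immediate early genes to the left around -3.11.

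The genes that mark quiescent MuSCs were mostly lower in myotubes. Of 46 listed genes tested, 35 were lower, 31 of them by more than 2-fold, and 6 were higher, with a median log2 difference of -2.45 against -0.19 over all genes tested. Pax7, at chr4:139737062-139833528 in GRCm38, encodes the paired-box factor that specifies the lineage. Its levels were 1827, 1360.5 and 1323 CPM in the 3 FiMuSC libraries and 22.9, 21.4 and 19.1 CPM in the 3 myotube libraries. All FiMuSC libraries lay far above all myotube libraries, by a log2 difference of -6.15 ± 0.18 (SE, adjusted p = 1.2e-07). Pax7 averaged 356 ± 21.5 CPM in AMuSCs and 155 ± 12.7 CPM in myoblasts, between the ends of the comparison. Myf5, the earliest myogenic factor and a mark of primed MuSCs, was 471, 415 and 484 CPM in FiMuSCs and 14.9, 13.1 and 11.7 CPM in myotubes, again without overlap (log2 difference -5.11 ± 0.13, adjusted p = 8.4e-08). Calcr encodes the calcitonin receptor, which helps keep MuSCs quiescent and in their niche. Its FiMuSC levels were 264, 346 and 294 CPM, and a single count was assigned to it over all 3 myotube libraries. AMuSCs averaged 8.997 ± 0.431 CPM of Calcr.

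Several other FiMuSC transcripts were close to absent from myotubes. Chodl, a C-type lectin gene, was 1654, 2334 and 2266 CPM in FiMuSCs and 0.469, 0.680 and 0.821 CPM in myotubes. The BMP antagonist gene Chrdl2 was 239, 380.5 and 320.2 CPM against 0.0827, 0.162 and 0 CPM, and the basement membrane collagen gene Col15a1 was 332, 780.3 and 637 CPM against 0.0551, 0.0647 and 0.183 CPM. For none of these did the groups overlap. The FGF receptor gene Fgfr4 had a mean of 855 ± 75.7 CPM (SD, n = 3) in FiMuSCs and 35.3 ± 1.10 CPM in myotubes, and Spry1, the receptor tyrosine kinase inhibitor that sustains quiescence, had 859.8 ± 142 and 101 ± 7.58 CPM. Cxcr4, the receptor for the niche chemokine CXCL12, fell from 141 ± 22.8 to 6.81 ± 1.54 CPM. The forkhead factor gene Foxo1 was lower (-1.90 ± 0.18 on the log2 scale). Foxo3 passed (-1.18 ± 0.37, adjusted p = 0.023) with overlapping libraries, and it no longer passed without FiMuSC replicate 2 (-0.95) or 3 (-1.03) or without myotube replicate 1 (-1.08) or 2 (-1.13). Foxo4 did not pass, at 106 ± 5.52 CPM in FiMuSCs and 97.5 ± 2.11 CPM in myotubes. Not every surface marker of MuSCs was lower. M-cadherin (Cdh15) was 341, 326 and 429 CPM in FiMuSCs and 409, 387 and 400.2 CPM in myotubes, with overlapping groups and an adjusted p of 0.33. Its call turned with the setting, since it passed as higher in myotubes without FiMuSC replicate 3 (log2 difference 0.23) and as lower with total counts (-0.47). Itga7, the laminin receptor subunit used to sort the FiMuSCs, was higher in myotubes at 1224, 1233 and 1227 CPM against 389, 526 and 570.0 CPM (log2 difference 1.31 ± 0.14), and Ncam1, an adhesion gene of regenerating muscle, was 1755, 1530.5 and 1668 CPM against 263, 248.7 and 300.4 CPM (2.61 ± 0.11).

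Notch genes were mostly lower, with a few exceptions. Of 22 tested, 15 were lower in myotubes and 4 higher (median log2 difference -2.03; 18 and 2 with total counts). Among receptors, Notch3 was 1468, 1419 and 1533 CPM in FiMuSCs and 66.2, 63.5 and 48.4 CPM in myotubes, and the differences for Notch1 (-2.16 ± 0.12) and Notch2 (-3.18 ± 0.11) had the same sign. The repressor genes that Notch induces were lower too. Heyl was 432, 809 and 597 CPM against 24.9, 30.9 and 23.2 CPM. Hey1 was 90.7, 109 and 112 CPM against 4.94, 5.99 and 2.95 CPM, and Hes1, which also answers other signals, was 184, 97.4 and 97.3 CPM against 19.7, 18.8 and 19.5 CPM, each without overlap. Heyl averaged 119 ± 18.4 CPM in AMuSCs and 1.36 ± 0.661 CPM in myoblasts, so the myotube level was above that of the myoblasts grown in culture. Among the transducers, Rbpj, the DNA-binding partner of the Notch intracellular domain, was 126 ± 17.2 CPM in FiMuSCs and 106 ± 18.4 CPM in myotubes and did not pass. It passed as lower in 5 of the other settings tried, with log2 differences from -0.26 with the replicate number as a block to -0.85 with total counts (-0.39 without myotube replicate 1). Jag2, a ligand, and Hes6, an antagonist of HES1 that promotes myogenic differentiation, were the members higher by more than 2-fold. Jag2 was 178, 151 and 166 CPM in myotubes and 15.4, 13.0 and 10.8 CPM in FiMuSCs, and Hes6 was 581, 537 and 475 CPM against 24.9, 26.5 and 20.6 CPM.

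The myogenic regulators moved in both directions, with 16 of 30 higher in myotubes and 10 lower (12 and 16 with total counts). Their median log2 difference was 0.31 with TMM and -0.29 with total counts, so no common direction is given. Myog, at chr1:134289989-134292548 on GRCm38, encodes myogenin, the factor of terminal commitment. It was 14.5, 15.1 and 10.5 CPM in FiMuSCs and 1393, 1240.4 and 1366 CPM in myotubes, a log2 difference of 6.64 ± 0.18 (SE, adjusted p = 1e-07) with no overlap. AMuSCs averaged 164 ± 31.2 CPM and myoblasts 119 ± 118 CPM, so its level was highest by far in the myotubes among the WT states. Myod1, the determination factor, was 809, 699.5 and 669 CPM in myotubes against 144, 146 and 133 CPM in FiMuSCs, but its myoblast mean of 1423 ± 58.9 CPM was higher still. Mef2c, a partner of the myogenic factors, was 1135, 1079 and 1554 CPM in myotubes and 6.10, 4.44 and 3.44 CPM in FiMuSCs, the widest difference among the MEF2 genes, with Mef2a at 3.70 ± 0.18 and Mef2d at 1.61 ± 0.11 on the log2 scale. Tead4 (6.65 ± 0.48) was higher too. Myf6, which marks late differentiation, varied between myotube libraries, at 56.6, 15.2 and 24.7 CPM, all above the FiMuSC levels of 2.84, 2.00 and 2.35 CPM. Repressors and early factors were lower. Msc, whose product musculin competes with MYOD1, was 136, 217 and 219 CPM in FiMuSCs and at most 2 counts in any myotube library, and Id3, an inhibitor of E-protein dimers, was 539, 296 and 166 CPM against 70.4, 47.8 and 33.2 CPM.

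The fusogens had some of the largest differences of the comparison. Mymk, at chr2:27061636-27072179, encodes Myomaker and was 1.33, 1.19 and 0.965 CPM in FiMuSCs and 1486, 1499.6 and 1544 CPM in myotubes. Mymx, which encodes Myomixer, was 0.438, 0.205 and 0.0210 CPM against 143, 120.3 and 109.8 CPM. The log2 differences were 10.34 ± 0.16 (SE, adjusted p = 3.2e-08) and 9.13 ± 0.46 (adjusted p = 4.2e-06). In AMuSCs Mymk averaged 33.1 ± 17.6 CPM and in myoblasts 32.5 ± 34.8 CPM, which places FiMuSCs lowest of the WT states. The caveolin gene Cav3 (10.09 ± 0.16), the membrane repair gene Dysf (5.86 ± 0.34), N-cadherin (Cdh2, 4.86 ± 0.41) and Jam2 (3.84 ± 0.31) were higher as well. In contrast, the cell contact genes Boc (-2.95 ± 0.27) and Kirrel (-3.07 ± 0.09) and the RAC activator genes Dock1 (-2.05 ± 0.07) and Elmo1 (-4.47 ± 0.19) were lower. In all, 10 of 21 fusion genes tested were higher and 8 lower, against 36.2 and 42.3% of all genes tested. The median of the fusion genes turned from 0.13 to -0.47 with total counts, where 9 were higher and 12 lower.

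**Figure D2:**
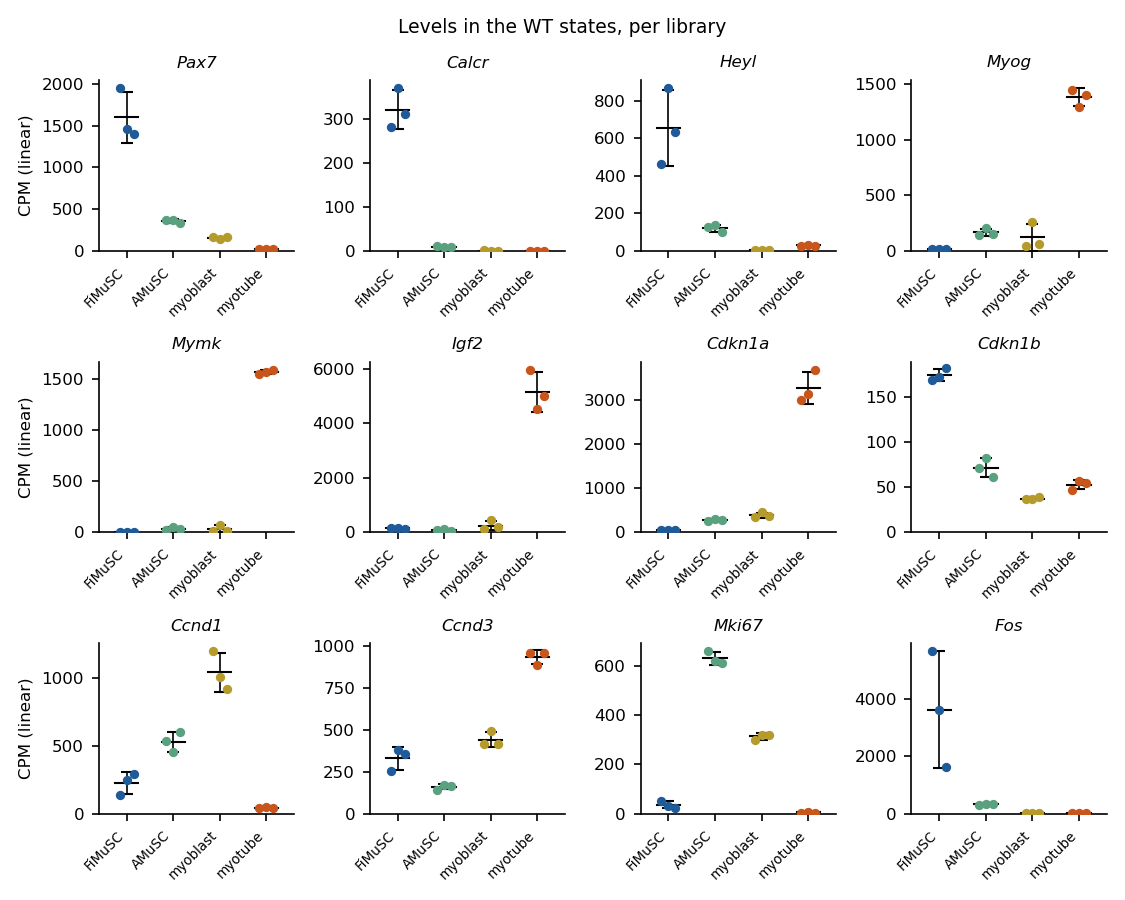
Points are the CPM of 3 libraries in each WT state on a linear axis from 0, with bars for the mean and SD, TMM-scaled over all 24 libraries. Pax7, Calcr and Cdkn1b stand highest in FiMuSCs, Myog, Mymk, Igf2 and Cdkn1a in myotubes, while Mki67 is high only in AMuSCs and myoblasts, the states that divide.

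Sarcomere genes rose nearly as one. Of 66 tested, 62 were higher in myotubes, 61 of them by more than 2-fold, and the median log2 difference was 7.69. Their summed level was 2265 to 2479 CPM per FiMuSC library and 128288 to 139527 CPM per myotube library. Embryonic myosin heavy chain, Myh3, was 19239, 20731 and 19070.0 CPM in myotubes and 5.75, 1.66 and 1.03 CPM in FiMuSCs. Perinatal Myh8 was 3462, 3639 and 4435 CPM in myotubes and 1.03, 0.523 and 0.440 CPM in FiMuSCs. The adult fast isoform Myh1 was already at 10046, 7593 and 11171 CPM in myotubes against 5.69, 11.4 and 10.9 CPM. Corrected for length, the myotube means in this gene cluster were 1607 ± 122 TPM for Myh3, 801 ± 131 TPM for Myh1, 314 ± 33.3 TPM for Myh8, 46.1 ± 14.8 TPM for Myh4 and 0.563 ± 0.0632 TPM for Myh2 (SD, n = 3), an order in which no neighbours overlapped. The slow isoform gene Myh7 was 4.72 ± 2.30 TPM. These genes are close paralogs, and how estimated counts are split between them depends on the quantification.

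Actins and troponins moved with the myosins. Skeletal actin (Acta1) was 11426, 11376 and 11032 CPM in myotubes and 30.4, 21.3 and 20.5 CPM in FiMuSCs, and cardiac actin (Actc1), the form of the embryonic fibre, was 5386, 5194 and 5776 CPM against 3.24, 1.33 and 1.11 CPM. In TPM the myotube means were 4428 ± 222 for Acta1 and 2104 ± 45.8 for Actc1. Slow troponin I (Tnni1) was 3121, 3156 and 3466 CPM in myotubes and 1.58, 0.709 and 0.420 CPM in FiMuSCs, and fast troponin I (Tnni2) was 576, 619 and 656 CPM against 6.21, 4.26 and 3.69 CPM. Among 29 genes listed as developmental or adult forms of the same product, all 14 developmental and all 15 adult forms were higher in myotubes, with median log2 differences of 10.32 and 7.03. Per myotube library the developmental forms summed to 18055 to 19036 TPM and the adult forms to 30793 to 31760 TPM. The exceptions in the sarcomere list were few. The non-muscle myosin gene Myh14 was 36.1, 28.7 and 32.8 CPM in FiMuSCs and 0.0276, 0.582 and 0.0304 CPM in myotubes. Ventricular Myl3 was below 1 CPM in every FiMuSC library and at 0 counts in every myotube library, and Tpm3 did not pass (137 ± 12.7 and 125 ± 7.23 CPM). FiMuSC libraries held some adult fibre transcripts, such as Actn3 at 177, 303 and 384 CPM, Atp2a1 at 89.0, 252 and 326 CPM and Pygm at 67.3, 93.2 and 109 CPM. The 15 fibre markers summed to 533 to 917 CPM per FiMuSC library and 48789 to 56736 CPM per myotube library, and all of them were higher in myotubes. Whether fibre RNA in the sorted fraction contributed to the FiMuSC levels was not tested.

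The promoters of 3 genes with large differences are shown, a thin filament, a receptor and an enzyme gene, so that the sites of muscle factors can be read in them. Of 10 genes looked up, 7 had a promoter in the RefSeq table, and the 3 shown are those with a match. Each run covers 250 bases before and 50 after the RefSeq start site, 5′ to 3′ on the gene's strand in GRCm38.p6. Capitals mark matches, on either strand, to CAGCTG (the E-box bound by MYOD1 and MYOG dimers), the SRF CArG box, the MEF2 site, TGACTCA (AP-1), GTGGGAA (RBPJ) or GTAAACA (forkhead). No matches overlapped. The Acta1 run lies at chr8:123894726-123895025 (minus strand), the Chrng run (the fetal acetylcholine receptor gene described next) at chr1:87205561-87205860 (plus strand) and the Ckm run (muscle creatine kinase) at chr7:19410844-19411143 (plus strand).
Acta1: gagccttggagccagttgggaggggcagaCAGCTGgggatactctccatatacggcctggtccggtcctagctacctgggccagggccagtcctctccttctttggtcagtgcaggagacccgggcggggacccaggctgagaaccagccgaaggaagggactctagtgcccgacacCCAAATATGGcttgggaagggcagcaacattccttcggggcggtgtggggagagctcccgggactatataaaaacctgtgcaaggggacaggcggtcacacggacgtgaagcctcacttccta
Chrng: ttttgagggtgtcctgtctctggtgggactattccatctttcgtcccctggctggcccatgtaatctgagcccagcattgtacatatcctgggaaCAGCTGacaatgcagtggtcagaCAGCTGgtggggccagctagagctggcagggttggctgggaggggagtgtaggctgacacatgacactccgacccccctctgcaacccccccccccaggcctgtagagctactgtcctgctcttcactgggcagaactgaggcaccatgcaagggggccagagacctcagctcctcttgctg
Ckm: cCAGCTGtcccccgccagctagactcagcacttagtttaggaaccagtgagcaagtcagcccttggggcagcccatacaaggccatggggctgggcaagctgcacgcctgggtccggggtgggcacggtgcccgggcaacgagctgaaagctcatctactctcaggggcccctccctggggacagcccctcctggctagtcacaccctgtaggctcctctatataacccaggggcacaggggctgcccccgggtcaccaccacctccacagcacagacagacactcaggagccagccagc
The Acta1 run holds 1 E-box and 1 CArG box, the Chrng run 2 E-boxes, and the Ckm run 1 E-box. CAGCTG occurs in 16.3% of the 32841 promoters of this length in the RefSeq table, the CArG box in 1.63%, the MEF2 site in 3.19%, TGACTCA in 5.2%, GTGGGAA in 6.38% and GTAAACA in 3.65%. The promoters of Myog, Myh3, Pax7 and Calcr in the same table hold no match to these patterns in this window. The patterns are strict, so a run without a match can still hold sites that depart from them by a base. A comparison of motif shares between genes higher and lower in myotubes is void, since the table matched 69.7% of the former and 56.6% of the latter, under the 80% set for such a check.

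Genes of excitation-contraction coupling were also raised. Of 29 tested, 26 were higher and 2 lower (median log2 difference 4.40). The voltage sensor Cacna1s was 779, 686 and 782 CPM in myotubes and 1.01, 0.467 and 0.587 CPM in FiMuSCs. The calcium release channel Ryr1 was 2009, 1619 and 1926 CPM and 47.1, 56.1 and 51.5 CPM. The release channels divided between the states, since Ryr3 was 273, 343 and 282 CPM in FiMuSCs and 8.38, 11.2 and 15.6 CPM in myotubes (log2 difference -4.67 ± 0.25, adjusted p = 3.5e-06), and the inositol trisphosphate receptor Itpr1 was 93.2, 72.4 and 85.4 CPM against 8.38, 8.51 and 7.39 CPM. AMuSCs and myoblasts averaged 9.32 ± 0.578 and 0.301 ± 0.121 CPM of Ryr3. Calsequestrin 2 (Casq2), the developmental and slow form of the calcium store protein, had a log2 difference of 10.49 ± 0.34, and the fast form Casq1 of 8.50 ± 0.19. Sarcolipin (Sln), a regulator of the calcium pump, did not pass, at 0.875, 5.32 and 3.25 CPM in FiMuSCs and 6.67, 4.14 and 8.24 CPM in myotubes, except without FiMuSC replicate 2 (1.61).

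At the neuromuscular synapse, 11 of 13 genes were higher in myotubes and none was lower (10 higher and 2 lower with total counts), in cultures without nerve. Receptor subunits differed. The fetal subunit gene Chrng was 1188, 1173 and 1131 CPM in myotubes and 5.47, 1.70 and 0.608 CPM in FiMuSCs. The adult subunit gene Chrne reached only 2.12, 1.72 and 2.19 CPM in myotubes. Per length these myotube levels were 333 ± 20.5 TPM for Chrng and 0.980 ± 0.326 TPM for Chrne (SD, n = 3). Chrna1 was 3182, 2887 and 3097 CPM against 125, 138 and 149 CPM, whereas the beta subunit Chrnb1 did not pass, at 301, 300.5 and 303 CPM in FiMuSCs and 327, 297 and 326 CPM in myotubes (adjusted p = 0.38). Its log2 difference was 0.07 ± 0.07 with TMM, and it passed as lower with total counts (-0.52) and with upper-quartile scaling (-0.21). The agrin co-receptor Lrp4 (4.53 ± 0.08) and the adaptor Dok7 (5.90 ± 0.36) were higher, and Musk (1.80 ± 0.14) less so.

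Within the dystrophin complex, 8 of 15 genes were higher in myotubes and 5 lower, against 36.2 and 42.3% of all genes tested. Dmd itself was 237, 244 and 218 CPM in FiMuSCs and 197, 201 and 224 CPM in myotubes and did not pass (log2 difference -0.17 ± 0.08, adjusted p = 0.091). It passed as lower in myotubes in 5 of the other settings tried, from -0.24 without FiMuSC replicate 3 to -0.69 with the length offset and -0.77 with total counts. The leading Dmd transcript also differed between the groups without overlapping shares, so the gene level pools different transcripts. This held for 1 of 7 genes of the complex with at least 10 TPM in all 6 libraries, against 6.07% of all such genes. Dmd levels in the other WT states were lower, at 18.0 ± 2.72 CPM in AMuSCs and 8.01 ± 5.05 CPM in myoblasts. Dag1, the dystroglycan gene, was lower in myotubes (2213 ± 442 against 1381 ± 62.4 CPM). Sgca, which encodes alpha-sarcoglycan, was higher, at 145, 132 and 143 CPM in myotubes and 44.8, 45.2 and 49.1 CPM in FiMuSCs (1.59 ± 0.08 on the log2 scale). The syntrophins parted, with Sntb1 higher (5.01 ± 0.10) and Sntb2 lower (-2.94 ± 0.14). Utrophin (Utrn) was 324 ± 23.7 and 305 ± 5.02 CPM and did not pass.

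Cell cycle genes differed between these non-dividing states. Among 7 CDK inhibitor genes, 5 were higher in myotubes and 1 was lower (2 with total counts). Cdkn1a, at chr17:29090976-29100727, encodes p21 and was 35.6, 34.7 and 36.7 CPM in FiMuSCs and 2882, 3007 and 3595 CPM in myotubes (log2 difference 6.47 ± 0.14, adjusted p = 5.2e-08). Cdkn1b, which encodes p27, went the other way, at 157, 160.4 and 172 CPM in FiMuSCs and 44.9, 53.8 and 52.5 CPM in myotubes (-1.69 ± 0.09, adjusted p = 1.7e-06). For neither gene did the groups overlap. Corrected for length, FiMuSCs held 58.3 ± 3.66 TPM of Cdkn1b and 20.6 ± 0.691 TPM of Cdkn1a, and myotubes held 11.6 ± 0.793 and 980.4 ± 99.6 TPM (SD, n = 3), so the order of the pair turned over. AMuSCs averaged 283 ± 24.0 CPM of Cdkn1a and 71.4 ± 10.5 CPM of Cdkn1b, and myoblasts 386 ± 58.2 and 37.0 ± 1.35 CPM. Cdkn1c (p57) was 30.4, 22.4 and 18.5 CPM in FiMuSCs and 80.7, 76.8 and 206 CPM in myotubes, with 1 myotube library well above the other two. Cdkn2a and Cdkn2b were higher in myotubes (5.17 ± 0.53 and 5.28 ± 0.17), and their myoblast means of 137 ± 39.0 and 39.6 ± 10.0 CPM were also above the FiMuSC libraries. Of the pocket protein genes, Rb1 was 33.3, 34.7 and 32.1 CPM in FiMuSCs and 234, 238 and 243 CPM in myotubes (2.84 ± 0.07). Rbl2, which encodes p130, was 68.8, 64.4 and 65.2 CPM against 27.96, 35.5 and 35.8 CPM (-0.999 ± 0.11), and Rbl1 did not pass. Over the 10 pocket protein and DREAM complex genes, 4 were higher and 4 lower, near the 36.2 and 42.3% of all genes tested.

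The D-type cyclins also separated. Ccnd1 was 130.1, 233 and 277 CPM in FiMuSCs and 40.0, 47.6 and 38.4 CPM in myotubes, Ccnd2 was 14.6, 6.66 and 4.03 CPM against 193, 183 and 168 CPM, and Ccnd3, which accumulates during muscle differentiation, was 235, 355 and 334 CPM against 915, 845 and 929 CPM. Ccnd1 was thus lower and the others higher in myotubes, without overlap for any of them. Over 69 cell cycle genes, 39 were lower in myotubes and 10 higher (median log2 difference -1.27, with 55 lower and 6 higher by total counts), and the genes of mitosis had 17 lower and none higher of 27. The absolute levels were small at both ends. Mki67, the proliferation marker, was 49.0, 30.4 and 21.5 CPM in FiMuSCs and 3.53, 6.54 and 2.71 CPM in myotubes, against means of 631 ± 26.2 CPM in AMuSCs and 314 ± 13.7 CPM in myoblasts. Top2a was 40.2, 25.3 and 18.4 CPM against 6.26, 7.31 and 3.41 CPM, against 570.0 ± 30.9 and 429 ± 4.43 CPM. The mitosis genes summed to 143 to 358 CPM per FiMuSC library and 62.3 to 100.3 CPM per myotube library. FiMuSC replicate 1 was the highest of its group for Mki67 and Top2a, and without it 15 mitosis genes were lower, with a median of -1.23 against -1.81 with all libraries. The replication helicase genes Mcm3 to Mcm7 were lower in myotubes (log2 differences from -2.38 for Mcm3 to -1.57 for Mcm4), whereas Mcm2 was 19.1 ± 2.49 and 22.6 ± 0.371 CPM and did not pass. Without FiMuSC replicate 1 Mcm2 passed as higher in myotubes (0.33) and with total counts as lower (-0.36). Rrm1, a subunit of ribonucleotide reductase, was an exception at 176, 189 and 169 CPM in myotubes and 53.7, 35.7 and 35.0 CPM in FiMuSCs. Myc fell from 94.9 ± 30.1 to 11.4 ± 1.85 CPM.

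Genes known as p53 targets were mostly higher in myotubes, 14 of 20, with 4 lower. Beside Cdkn1a, the cyclin G1 gene Ccng1 was 659.8, 759 and 889 CPM in myotubes and 50.9, 32.5 and 31.1 CPM in FiMuSCs, and Mdm2, whose product degrades p53, was 197, 204 and 224 CPM against 57.3, 51.6 and 44.0 CPM. Phlda3 (3.42 ± 0.17), an inhibitor of AKT, and the cell death genes Pmaip1 (5.65 ± 0.67) and Bax (1.87 ± 0.09) were higher too. Ccng1 and Mdm2 averaged 708 ± 61.6 and 239 ± 30.7 CPM in the myoblasts, levels like those of the myotubes, and 133 ± 14.1 and 81.6 ± 5.58 CPM in AMuSCs. Trp53 itself was lower (-1.09 ± 0.07), as were the antiproliferative gene Btg2 (-3.56 ± 0.52), the sestrin gene Sesn1 (-1.33 ± 0.13) and Trp53inp1 (-1.62 ± 0.20).

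Immediate early genes, which respond within minutes to growth factors and to stress, were high in FiMuSCs. None of 26 was higher in myotubes and 23 were lower (median log2 difference -3.11). Fos was 5302, 3364 and 1528 CPM in FiMuSCs and 14.5, 12.7 and 13.8 CPM in myotubes. Egr1 was 6804, 3155 and 1536 CPM against 141, 142 and 132 CPM, and Socs3, a brake on cytokine signalling, was 1060.0, 505 and 246 CPM against 3.12, 2.59 and 2.77 CPM. Replicate 1 was the highest and replicate 3 the lowest FiMuSC library for each, yet all lay above the myotubes. The list summed to 8689 to 29564 CPM per FiMuSC library and 898 to 997 CPM per myotube library. Fos averaged 322 ± 32.5 CPM in AMuSCs, prepared with the same RNA kit, and 9.62 ± 1.05 CPM in myoblasts. The inducible HSP70 genes Hspa1a and Hspa1b behaved alike, at 6423, 6553 and 2927 CPM and 8844, 9146 and 4716 CPM in FiMuSCs and at most 11.4 and 20.5 CPM in a myotube library. They are near-identical copies, and the division of counts between them is uncertain. In AMuSCs they averaged 146 ± 14.9 and 239 ± 26.4 CPM. The paper counts Jun, Junb and Fos among stress genes that tissue dissociation induces, and its sorted cells were released from muscle with collagenase and dispase. The part of dissociation in the immediate early and HSP70 levels of FiMuSCs was not tested. Over the list of 16 heat shock chaperones, 6 were higher in myotubes and 3 lower, with a median of 0.17 that became -0.42 with total counts, where 4 were higher and 4 lower. Without FiMuSC replicate 3 the counts were 5 and 5 and the median -0.09. The constitutive chaperone gene Hspa8 did not pass, at 2918 ± 1002 CPM in FiMuSCs and 3379 ± 222 CPM in myotubes, except without FiMuSC replicate 2 (0.49), and turned to -0.02 without replicate 3. The small heat shock genes of muscle, Hspb8 (7.95 ± 0.55), Hspb2 (4.40 ± 0.20) and Cryab (2.49 ± 0.24), were higher in myotubes.

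Energy metabolism genes were raised as a body. All 62 nuclear genes of oxidative phosphorylation were higher in myotubes, 59 by more than 2-fold, with a median log2 difference of 2.43, and 61 passed with total counts. Examples are Ndufa9 of complex I (3.11 ± 0.09) and Atp5b of the ATP synthase, which was 531, 628 and 617 CPM in FiMuSCs and 3627, 3509 and 3714 CPM in myotubes. The muscle isoforms of cytochrome oxidase stood out, with Cox6a2 at 0.306, 0.243 and 0.797 CPM against 118, 116 and 150.4 CPM and Cox8b at 0.788, 0.635 and 0.420 CPM against 123, 99.1 and 111 CPM, while their ubiquitous counterparts Cox6a1 and Cox8a differed by 1.11 ± 0.11 and 1.02 ± 0.09 on the log2 scale. The 13 mitochondrially encoded genes were all higher as well, but by less (median log2 difference 1.17, and 0.57 with total counts). Of 34 glycolysis and glycogen genes, 29 were higher and 3 lower (median 2.96). Pfkm, the muscle phosphofructokinase, was 34.4, 36.3 and 38.4 CPM in FiMuSCs and 1308, 1208 and 1322 CPM in myotubes, whereas the platelet form Pfkp was lower (-1.24 ± 0.13). Ckm was 14.2, 9.69 and 9.50 CPM against 1079, 934 and 879.9 CPM, and Slc2a4, the insulin-regulated glucose transporter, was 2.65, 1.85 and 1.20 CPM against 87.8, 85.9 and 114 CPM. Fatty acid genes parted by step, since 21 of 25 oxidation genes and regulators were higher, but 5 of 11 transport genes were higher and 6 lower. Cpt1b, the muscle carnitine palmitoyltransferase, was higher (3.85 ± 0.42) and the liver form Cpt1a lower (-1.87 ± 0.28). Fabp3, the muscle fatty acid binding protein, was 0.810, 0.653 and 0.776 CPM against 183, 163 and 183 CPM, and Fabp4, the form of fat and endothelium, was 72.7, 39.6 and 50.9 CPM in FiMuSCs with 1 count in all myotube libraries.

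**Figure D3:**
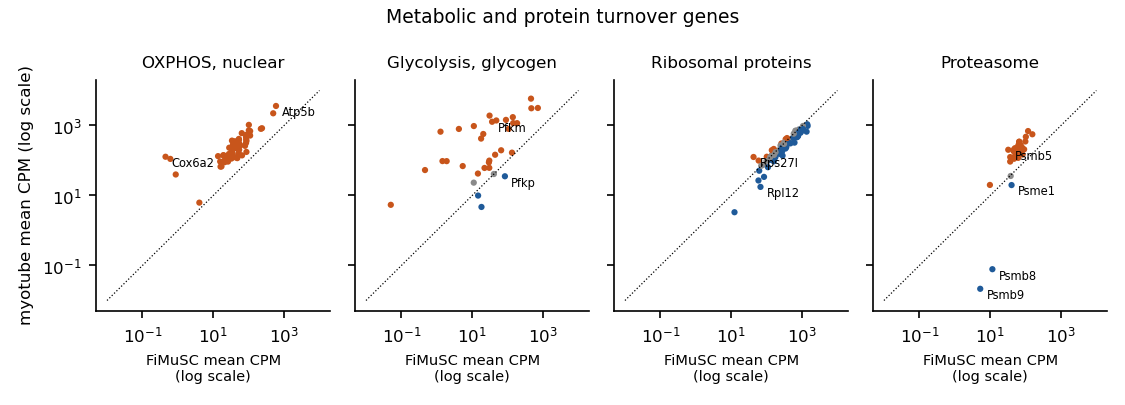
Mean CPM of each listed gene in FiMuSCs (horizontal) and myotubes (vertical) on log axes, orange where higher in myotubes, blue where lower, grey where not passing, with equal levels on the dotted line. The nuclear genes of oxidative phosphorylation (OXPHOS) lie above the line in all 62 cases, ribosomal proteins lie near it, and the immunoproteasome genes Psmb8 and Psmb9 lie far below the other proteasome genes.

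Protein synthesis and degradation genes went apart. Of 80 ribosomal protein genes, 50 were lower in myotubes and 8 higher, but by small amounts (median log2 difference -0.30, close to the -0.19 of all genes). With total counts 76 were lower and 1 was higher. Of them, Rpl12, Rps12 and Rps27l differed by more than 2-fold in the second test. Rpl12 fell from 67.2 ± 4.19 to 17.6 ± 1.80 CPM and Rps12 from 58.9 ± 1.85 to 26.8 ± 1.05 CPM. Rps27l, a p53-inducible member, was the higher member at 110.3, 129 and 139 CPM in myotubes against 40.8, 43.0 and 44.5 CPM. Many ribosomal protein genes have processed pseudogenes that can share their reads. Genes of ribosome assembly had 10 higher and 10 lower of 25, near the 36.2 and 42.3% of all genes tested. With total counts 4 of them were higher and 18 lower. Proteasome genes were higher in 34 of 38 cases and lower in 3 (median 1.68). The catalytic subunit gene Psmb5 was 27.7, 35.7 and 33.9 CPM in FiMuSCs and 204, 194 and 209 CPM in myotubes. Its counterpart in the immunoproteasome, Psmb8, was 13.6, 12.3 and 8.73 CPM against 0.138, 0.0971 and 0 CPM, and Psmb9 was 6.43, 4.35 and 4.95 CPM against 0, 0.0647 and 0 CPM, so the constitutive and inducible subunits had opposite signs. The regulator genes Psme1 (-1.02 ± 0.08, lower) and Psme2 (not passing) belong to the inducible form too. Of 22 autophagy and lysosome genes, 15 were higher and 5 lower. The lysosomal protease gene Ctsd (3.01 ± 0.10) and Lamp1 (1.98 ± 0.08) were among the higher, and the list's median of 0.58 became -0.01 with total counts, where 9 were higher and 8 lower.

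Matrix genes were lower in myotubes, with 30 of 44 lower and 8 higher (median -2.11, with 36 lower and 3 higher by total counts). Col3a1 was 1735, 3238 and 3822 CPM in FiMuSCs and 140.5, 178 and 110.2 CPM in myotubes, and Col6a1, part of the MuSC niche, was lower as well (-4.07 ± 0.39). The higher members included the fibronectin gene Fn1, at 350.1, 384 and 346 CPM in myotubes and 106, 122 and 78.5 CPM in FiMuSCs, and Col25a1 (8.46 ± 0.29), a muscle-made collagen needed for innervation. Without myotube replicate 2 the count of higher members was 5. The myoblast mean of Fn1 was 2369 ± 512 CPM. Integrin genes ran the other way, with 12 of 16 higher, led by Itgb6 (7.78 ± 0.48) and Itgb1bp2 (9.28 ± 0.28), which encodes the muscle chaperone melusin.

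H19, an imprinted noncoding RNA at chr7:142575529-142578143, ranked first by CPM in the myotube libraries, mitochondrial genes left aside. Corrected for length it was not first, at 16356 ± 1244 TPM (SD, n = 3) against 95769 ± 3778 TPM for Mylpf. H19 was 28817, 26873 and 25893 CPM in myotubes and 100.1, 155 and 116 CPM in FiMuSCs, a log2 difference of 7.78 ± 0.23 (adjusted p = 1.3e-07). Igf2, its reciprocally imprinted neighbour and an autocrine factor of myoblast differentiation, was 5716, 4329 and 4837 CPM in myotubes and 154, 130.4 and 121 CPM in FiMuSCs. Both were far lower in AMuSCs (624 ± 215 and 76.3 ± 37.4 CPM) and myoblasts (2564 ± 1155 and 241 ± 172 CPM). Igf1 had the opposite sign, at 79.3, 138 and 179 CPM in FiMuSCs and 10.3, 6.80 and 5.78 CPM in myotubes. Genes of another imprinted cluster were lower in myotubes. Meg3 was 1587, 2473 and 2180.1 CPM in FiMuSCs and 11.2, 8.28 and 26.2 CPM in myotubes, and Rian, transcribed in the same direction further along, was 724, 1078 and 1038 CPM against 14.4, 12.2 and 47.8 CPM. In this list of noncoding RNAs 8 of 10 were lower, H19 was the sole higher member, and Neat1 did not pass (-0.23 ± 0.12) but did as lower without FiMuSC replicate 1 (-0.32), with total counts (-0.83) and with upper-quartile scaling (-0.51). Over the insulin-like growth factor axis, 10 of 18 genes were higher and 6 lower, the binding protein gene Igfbp4 (-4.99 ± 0.20) and the signalling adaptor Irs2 (-5.06 ± 0.46) among the latter.

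Interferon targets and antigen presentation genes were lower in myotubes, 25 of 27, with Bst2, which encodes tetherin, the 1 higher member (0.84 ± 0.18, and 0.25 without a call under total counts) (median -2.45). The class I gene H2-D1, a close relative of other class I genes, was 262, 215 and 183 CPM in FiMuSCs and 7.61, 8.58 and 9.25 CPM in myotubes. Chromatin regulators were lower in 19 of 27 cases and higher in 7 (20 and 2 with total counts). Ezh1, the Polycomb methyltransferase of non-dividing cells, was 139.8, 113 and 134 CPM against 33.5, 34.6 and 36.1 CPM, and Hdac9, a deacetylase that restrains MEF2, was higher in myotubes (5.31 ± 0.24).

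Markers of cells other than the myogenic lineage were almost all lower in myotubes. Leukocyte markers were lower in 20 of 22 tested, endothelial in 16 of 16, fibro-adipogenic in 15 of 16, pericyte in 8 of 11, Schwann cell in 9 of 9 and erythroid in 7 of 7. Higher in myotubes were 1 leukocyte, 1 fibro-adipogenic and 2 pericyte markers. Leukocyte markers summed to 132 to 681 CPM per FiMuSC library and to 15.8 to 20.5 CPM per myotube library. Fibro-adipogenic markers summed to 3466 to 5668 and 412 to 546 CPM. Much of the FiMuSC sum was Col3a1, also a matrix gene above, which alone was 1735, 3238 and 3822 CPM. Pericyte and smooth muscle markers summed to 1871 to 2052 and 1216 to 1265 CPM. For endothelial markers the sums were 345 to 455 and 13.4 to 25.5 CPM, for Schwann cells 269 to 384 and 5.71 to 8.22 CPM, and for red cells 147 to 546 and 0.0304 to 0.194 CPM. FiMuSC replicate 2 held the most neutrophil RNA (S100a9 at 46.7, 146 and 19.1 CPM) and replicate 1 the most globin RNA (Hbb-bs at 215, 77.2 and 60.5 CPM). Both genes had at most 1 count in any myotube library. Against the floor of 3 counts per library, Hbb-bs was at least 1302-fold lower in myotubes, a bound that rests on FiMuSC replicate 1 and was 762-fold without it. The defining leukocyte gene Ptprc (CD45), whose product was sorted against, was 7.20, 21.2 and 5.52 CPM in FiMuSCs. The fibro-adipogenic receptor gene Pdgfra was low in both groups (2.14, 1.27 and 1.17 CPM against 0.386, 0.712 and 0.213 CPM), while other genes of that list, such as Col3a1 and Dpt, were far more abundant per length, at 1507 ± 572 and 307 ± 48.5 TPM in FiMuSCs against 0.238 ± 0.0651 TPM for Pdgfra. The part of these cells in the differences for interferon, matrix and immediate early genes was not tested.

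**Figure D4:**
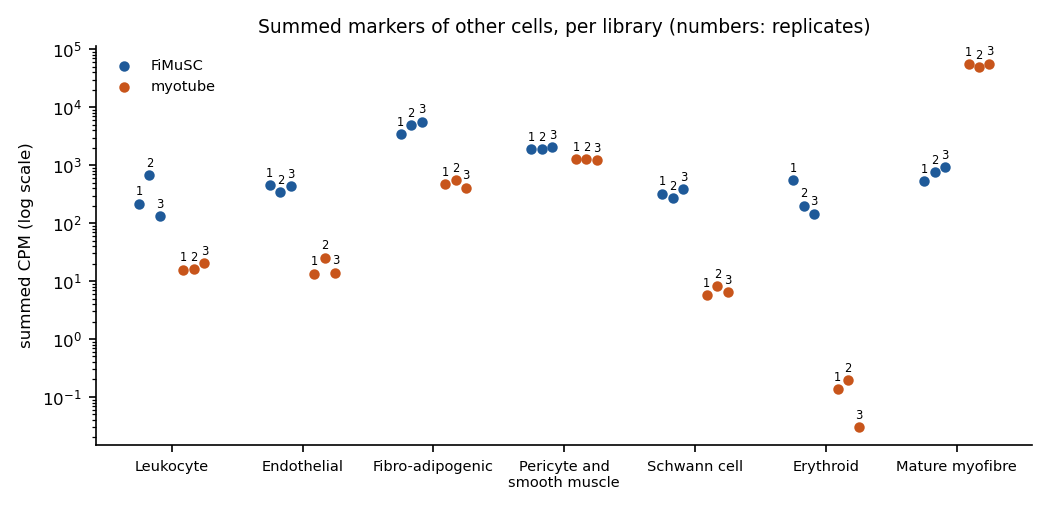
Summed CPM of each marker list on a log axis, 1 point per library with its replicate number, FiMuSCs in blue and myotubes in orange. All lists but that of the mature myofibre are higher in every FiMuSC library than in any myotube library, with leukocyte markers highest in replicate 2 and erythroid markers in replicate 1.

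By fitted size, among genes with a mean of at least 50 CPM in the higher group, the widest increases were led by Tas1r1, Myh3, Mybph, Myh8 and Hephl1, followed by Tnni1, Tnnc1, Actc1, Tnnt2, Lmod3, Fgf21, Hspb3, Smpx, Igfn1 and Dhrs7c. Of these, Myh3, Mybph, Myh8, Tnni1, Tnnc1, Actc1, Tnnt2 and Lmod3 belong to the sarcomere list. Tas1r1, a taste receptor subunit, had no count in FiMuSCs and 62.8, 59.03 and 62.8 CPM in myotubes, at least 1000.3-fold higher against the same floor. Fgf21, a hormone made by stressed muscle and liver, was 142, 176 and 192 CPM in myotubes and 0.109, 0.0933 and 0 CPM in FiMuSCs. The widest decreases were Hbb-bs, Calcr, Ngp, Hba-a1, Cacna1d, Tnxb, Edn3, Bmp4, Msc, Col15a1, S100a9, Ramp2, Fabp4, Dpt and Chrdl2, of which Hbb-bs, Hba-a1, Ngp and S100a9 belong to blood cells. Tnxb, which encodes the matrix protein tenascin-X, was 1296, 1099.9 and 1168 CPM in FiMuSCs and 0.193, 0 and 0.0913 CPM in myotubes. The endothelin gene Edn3 was 387, 494 and 444 CPM against 0.0276, 0.0324 and 0.0913 CPM, and the calcium channel gene Cacna1d was 59.9, 50.5 and 57.3 CPM in FiMuSCs with no count in myotubes. By CPM, which does not take length into account, FiMuSCs were led by Hspa1b, Eef1a1, Hspa1a, Hmcn2, Malat1, Gnas, Egr1, Eef2, Fos and Col3a1. Hmcn2, a basement membrane hemicentin, was 4525, 5232 and 6067 CPM in FiMuSCs and 3.72, 3.04 and 3.95 CPM in myotubes. The myotube libraries were led by H19, Myh3, Acta1, Myh1, Myl1, Mylpf, Gm42418, Eef1a1, Aldoa and Atp2a1. Of these, the predicted noncoding locus Gm42418 varied between myotube libraries, at 5366, 5332 and 11134 CPM. The elongation factor gene Eef1a1, in both sets, was 7419, 7349 and 7548 CPM against 6585, 6330.1 and 6192 CPM and did not pass (adjusted p = 0.065). It passed as lower in myotubes in 8 of the other settings tried, from -0.22 with DESeq2 to -0.82 with total counts.

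Leading transcripts also differed. Of 4781 genes with at least 10 TPM in all 6 libraries, 290 (6.07%) had a different leading transcript in the groups with shares that did not overlap for either transcript. For the sarcomere list this held for 5 of 15, for calcium handling 3 of 8 and for ribosomal proteins 4 of 79. Flnc-201 held 80.6% of filamin C TPM in FiMuSCs and 15.2% in myotubes, where Flnc-202 rose from 18.0 to 84.7%. Tpm1, the tropomyosin gene known for tissue-specific splicing, passed from Tpm1-211 (50.5% in FiMuSCs, 0.656% in myotubes) to Tpm1-205 (9.54% and 58.97%). Atp2a2, the SERCA2 pump gene, moved from Atp2a2-201 (48.6% and 12.2%) to Atp2a2-202 (16.5% and 82.7%). Rps24, whose gene level did not pass, held 95.1% as Rps24-202 in FiMuSCs and 72.3% as Rps24-205 in myotubes. With 3 libraries against 3 an exact test cannot go below 0.1, so these shares are a description, and shares of very short or fragmentary transcripts are uncertain.

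**Figure D5:**
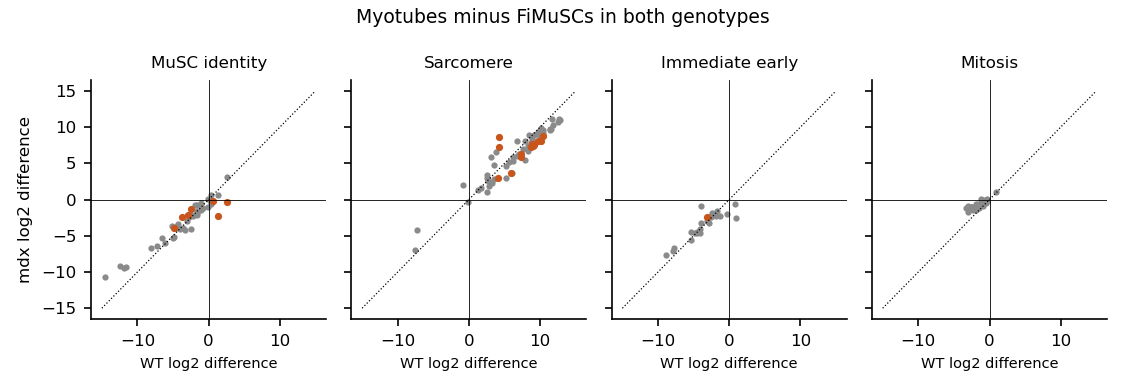
Log2 difference of each listed gene between myotubes and FiMuSCs in WT (horizontal) and mdx (vertical), orange where the difference between the genotypes passed an adjusted p of 0.05 and grey where it did not, with equal values on the dotted line. Sarcomere genes were higher in myotubes in both genotypes for most members, and no mitosis gene is orange.

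The contrast was measured again in mdx, whose libraries are separate. There 13250 of 19079 genes tested passed (69.4%). Of 14159 WT calls tested in mdx, 11568 (81.7%) passed with the same sign and 80 with the opposite sign, and of 8136 differences over 2-fold, 7425 (91.3%) passed with the same sign. In mdx 62 of 66 sarcomere genes and 62 of 62 oxidative phosphorylation genes were higher in myotubes, and 24 of 26 immediate early genes were lower. For mitosis genes 5 of 27 were lower. For none of these genes did the difference between the genotypes, tested as described next, pass with edgeR, 2 had an unadjusted p under 0.05, and 1 passed with DESeq2. A test of the difference between the genotypes was passed by 870 of 20586 genes (4.23%), of which 379 had a higher log2 difference in mdx and 491 a lower one. This count was 338 without WT myotube replicate 1, 393 without WT myotube replicate 2, 469 without WT myotube replicate 3, 478 and 394 without WT FiMuSC replicates 2 and 3, 394 and 428 without mdx FiMuSC replicates 2 and 3, and 526 without mdx myotube replicate 3. Among genes with at least 50 CPM in a group, the log2 difference in mdx was furthest above that in WT for Cacna1d, Ppp1r14a, Tnxb, Loxl2 and Msc. It was furthest below for Mrc1, Gpnmb, Lgals3, Cemip and Igf2bp2. The former were lower in myotubes in both genotypes, by less in mdx, and their mean FiMuSC levels were lower in mdx than in WT. All of the former but Loxl2 had myotube levels near 0, so their fitted values are no measure of size. The levels that follow are on the scale of all 24 libraries. Tnxb was 244, 217 and 232 CPM in mdx FiMuSCs, against 1387, 1179 and 1234 CPM in WT FiMuSCs, and below 2 CPM in every myotube library of either genotype. Lgals3, the galectin-3 gene of macrophages and other cells, was 60.2, 75.9 and 109.9 CPM in mdx FiMuSCs and 20.0, 11.8 and 4.34 CPM in WT FiMuSCs, with 189.7, 225 and 167 CPM in mdx myotubes and 658, 553 and 443 CPM in WT myotubes. For Tnxb the genotypes were apart in FiMuSCs, and for Lgals3 in both states, without overlap. Cdkn1a was 69.9, 144 and 156 CPM in mdx FiMuSCs against 38.1, 37.2 and 38.8 CPM in WT FiMuSCs, while the myotubes of the genotypes overlapped (3036, 3613 and 3381 CPM in mdx and 3006, 3141 and 3700.4 CPM in WT). Igf2 was likewise higher in mdx FiMuSCs, at 793, 633 and 642 CPM against 164, 139.8 and 128 CPM. Dmd, mutated in mdx, was 139, 149.5 and 149 CPM in mdx FiMuSCs and 40.1, 47.1 and 38.1 CPM in mdx myotubes.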

How the data were processed

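The authors quantified transcripts with Salmon 0.13.1 against GRCm38 (per the labels) and deposited, for each of 24 libraries (8 groups of 3), estimated counts and TPM per transcript. Estimated counts were summed per gene and rounded, and TPM were summed per gene. Of 53392 genes, 53355 matched GENCODE M21 by identifier. The 3 WT myotube and 3 WT FiMuSC libraries (37280196 to 44836107 counts each, so that 3 counts are 0.0615 CPM in FiMuSCs and 0.0903 CPM in myotubes) were compared in R 4.3.3 with edgeR 4.0.16 (filterByExpr, TMM, robust quasi-likelihood fit, prior count of 0.125, two-sided test) with a Benjamini-Hochberg adjusted p under 0.05, and with glmTreat against a 2-fold change. The mdx libraries were fitted likewise, and the interaction over 12 libraries. CPM are given on the TMM scale, and log2 differences carry their SE. The script was tested on simulated data in which 200 of 18614 genes changed, of which it recovered 13, 33.8 and 74.1% at 1.5, 2 and 4-fold. In the real comparison 78.6% of genes passed, so these shares do not give the recovery there.

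The lists of MuSC identity, Notch, myogenic, fusion, contractile, synaptic, cell cycle, stress, metabolic, ribosomal, proteasome, matrix, IGF, interferon, chromatin and marker genes, and all other members, were chosen with earlier results of these data known. Text names list members, the 15 widest changes each way with at least 50 CPM and no overlap, the 10 highest genes of each group, and the 5 widest interactions each way. Alternatives were other scalings, no filter, DESeq2 1.42.0, a length offset, all 24 libraries, a replicate block, coding genes alone and 1 library left out. Promoters are those of RefSeq (GRCm38.p6). Near-identical copies share reads and their levels are uncertain.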

Additional observations from a re-analysis of the deposited data

Results flagged for a closer look

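The contrast of myotubes with FiMuSCs differed between mdx and WT, by the interaction term of edgeR's quasi-likelihood test over 12 libraries, for 34 of the 204 genes named. Over all genes it passed for 870 of 20586 (4.23%). The 2 shares cannot be compared, because 10 genes were named for having the widest such differences and others because they passed. Values are the log2 difference in mdx minus that in WT, and every one has an adjusted p under 0.05 over 20586 genes. The mdx difference was lower for the cell cycle inhibitors Cdkn2a (-3.31), Cdkn2b (-2.12) and Cdkn1a (-1.67), and higher for Cdkn1b (0.92) and Trp53 (0.59). Among muscle structure and calcium genes it was lower for Myl1 (-2.06), Mylpf (-1.56), Cacna1s (-1.45), Acta1 (-1.19), Ryr1 (-0.73), Dmd (-1.59) and Hspb8 (-2.21), and higher for Myh7 (4.34), whose mdx myotube libraries ranged widely at 242, 44.0 and 321 CPM. For fusion and myogenic genes it was lower for Cdh2 (-2.02), Cav3 (-2.01), Mymk (-1.14) and Mef2a (-1.10). It was also lower for the deacetylase gene Hdac9 (-1.86), and higher for the synapse gene Lrp4 (1.28). The imprinted pair Igf2 (-2.58) and H19 (-1.37) was lower, as were Ctsd (-1.37), Bst2 (-1.90), Mrc1 (-5.20), Gpnmb (-4.38), Lgals3 (-4.27), Cemip (-3.90) and Igf2bp2 (-3.75). The difference was higher for Loxl2 (5.00), and for Dpt (3.17), Msc (4.65), Tnxb (5.49), Cacna1d (6.30) and Ppp1r14a (5.58), whose myotube levels are near 0, so that their fitted values are no measure of size.

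On the scale of all 24 libraries, FiMuSC levels of Cdkn2a were 23.6, 20.7 and 20.97 CPM in mdx and 5.01, 1.76 and 1.22 CPM in WT, while the myotube levels overlapped between genotypes (48.7, 99.97 and 81.0 CPM in mdx and 112, 91.4 and 74.1 CPM in WT). For Mymk the FiMuSC levels were 3.35, 2.15 and 2.56 CPM in mdx and 1.43, 1.28 and 1.02 CPM in WT. The macrophage mannose receptor gene Mrc1 was 16.9, 39.2 and 179 CPM in mdx FiMuSCs and 2.76, 5.02 and 1.73 CPM in WT FiMuSCs, so 1 mdx library stood well above the rest. The part of macrophage RNA in these differences was not tested.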

How the results depend on the processing

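The count of genes that differed was 14625 and lay between 13557 and 15793 under the other settings tried (14188 to 14690 when 1 library was left out), and that of differences over 2-fold was 8536 and lay between 7107 and 9344 (8274 to 8447). The mdx count of 13250 became 13258, 13679 and 12068 with size-factor scaling, DESeq2 and the replicate block, and 11574 to 13491 with 1 library left out. The interaction count of 870 moved more, to 2015 with DESeq2 and 449 with the replicate block, and to 338 to 1101 with 1 library left out, and was 3839 at an unadjusted p under 0.05. Same-numbered libraries showed no shared deviation, with correlations of -0.01, -0.004 and 0.033. This cannot show whether they were paired in the design, which the labels do not give. With the replicate number as a block the first counts were 13958 and 7954.

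Of 204 named genes and 15 alternatives, 2976 of 3054 values kept their direction and their side of the threshold. Another 42 values of 14 genes gained a call in the same direction, 20 of them with total-count or upper-quartile scaling, which lower all myotube levels. Foxo3 lost its call in 5 cases, Mrc1 in 7, Bst2 with total counts (0.25) and Ngp with no filter (-14.42). The log2 difference of a gene, or the median of a list, changed sign in the cases given next, and the cause was not tested beyond the shift that a scaling makes in all genes. None of these genes passed with TMM, but 4 of the 22 turned values did pass, as lower in myotubes, namely Cdh15, Mcm2 and Chrnb1 with total counts and Chrnb1 with upper-quartile scaling. The turned list medians were between 0.13 and 0.58 with TMM. With total counts, it was -0.288 for the myogenic regulators list, -0.471 for the fusion list, -0.416 for the heat shock chaperones list, -0.0092 for the autophagy and lysosome list, -0.471 for Cdh15, -0.523 for Chrnb1, -0.378 for Hspa8 and -0.355 for Mcm2. With upper-quartile scaling, it was -0.153 for the fusion list, -0.108 for the heat shock chaperones list, -0.153 for Cdh15, -0.208 for Chrnb1, -0.0673 for Hspa8 and -0.0415 for Mcm2. With the length offset, it was -0.0368 for Chrnb1, -0.148 for Mcm2, 0.0602 for Rps24 and 0.00064 for Tpm3. With coding genes alone, it was -0.0117 for the fusion list, -0.0117 for Cdh15 and -0.0662 for Chrnb1. With DESeq2, it was 0.0043 for Rps24. With size-factor scaling, it was 0.0043 for Rps24. With the replicate block, it was 0.00090 for Rps24. With 1 library left out, it lay between -0.0929 and 0.494 for the heat shock chaperones list, between -0.0233 and 0.495 for Hspa8 and between -0.0459 and 0.0374 for Rps24.

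Depth limits what can be said of genes with few counts in a group. A count of 3 corresponds to 0.0615 CPM in FiMuSCs and 0.0903 CPM in myotubes, so the levels of Calcr or Tnxb in myotubes and of Fgf21 in FiMuSCs are at or near the detection limit. With 3 libraries against 3, an exact test of a single value cannot go below 0.1.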

Other observations

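Some genes were present in every library of one state, at 1 CPM or more, and had no count in any library of the other. There were 160 such genes in FiMuSCs and 34 in myotubes. Over genes above a minimum of counts summed over the libraries compared, Spearman correlations lay between 0.978 and 0.982 within FiMuSCs. They lay between 0.982 and 0.983 within myotubes and between 0.792 and 0.798 across the states. Mitochondrial genes took 3.19 to 4.66% of the counts of a FiMuSC library and 6.41 to 6.79% of those of a myotube library.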
